A study of Mus musculus with 24 samples.

Results

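Slow-cycling, label-retaining cells (LRC) sorted from mouse tail epidermis at an age of 2 years were compared with LRC sorted at 2 months. The 6 libraries, 3 of each age, were taken by title from the 24 libraries of the series, which also hold fast-cycling non-label-retaining cells (nLRC), hair follicle stem cells (HFSC) and an age of 1.5 years. Mice of both ages were C57BL/6J, carried the transgenes K5-tTA and pTRE H2B-GFP and had eaten chow with doxycycline for 2 weeks. In this system the keratin 5 promoter drives a transactivator that switches on a histone-bound green fluorescent protein in basal keratinocytes. Doxycycline stops its production, and cells that divide seldom keep the label. LRC are therefore defined by retained label after that chase and not by a marker gene. Nothing in the labels says whether the replicates were separate animals or pools, so the p-values measure the spread between these libraries, which may be partly technical.

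The basal layer of the interfollicular epidermis holds keratinocytes that attach to the basement membrane through integrins and divide, and their daughters move up and differentiate under keratins 1 and 10. In mouse tail skin the epidermis between hairs is patterned into scales and interscales, which differ in keratins and in how often their cells divide. Melanocytes sit in the tail basal layer, and sebaceous glands and hair follicles are joined to it, so a sort from tail epidermis can also hold cells of these kinds.

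The 2 month libraries held 12160821, 12433489 and 14093720 gene reads and the 2 year libraries 13731614, 10139346 and 13082527. Levels below are CPM, the usual per-library read count scaled to a common library size, here after correction by the trimmed mean of M values (TMM). Genes are named as called where edgeR's quasi-likelihood test over 14865 genes gave an adjusted p (Benjamini-Hochberg) under 0.05. Mitochondrial genes took 7.80 to 9.39% of gene reads at 2 months and 10.6 to 12.1% at 2 years, without overlap. The number of genes with any read was 20578 to 27652 at 2 months and 17968 to 20283 at 2 years, also without overlap. Across genes, library pairs within 2 months had correlations of log2 CPM from 0.904 to 0.962 and pairs within 2 years from 0.892 to 0.914, while pairs of a 2 month and a 2 year library lay between 0.880 and 0.930 and so overlapped both. Xist, the RNA of the inactive X chromosome of females, stood at 1068, 0.087 and 0 CPM in 2 month replicates 1, 2 and 3 and at 821, 1.64 and 923 CPM at 2 years, and Y-linked genes had the reverse pattern. The sexes are thus mixed within both ages, with 1 library of 3 high in Xist at 2 months and 2 of 3 at 2 years. With Xist as a covariate, an alternative added after the data were seen, 28 genes were called higher and 5 lower. Of the called genes described below, Dusp4, Krt17, Rai14 and Soat1 were then not called.

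The tissue of origin was checked with 20 basal keratinocyte genes, which do not tell LRC from the other epidermal sorts. Their sum was 23859 to 24649 CPM at 2 months and 21152 to 21859 CPM at 2 years. No member of that list was called, and its median log2 fold change was -0.08 beside 0.00076 over all genes tested. Krt5, which pairs with keratin 14 in basal cells, had 6221, 5757 and 5828 CPM at 2 months and 4888, 5449 and 4324 CPM at 2 years. Krt14 had 5649, 5906 and 5883 CPM and then 4969, 4527 and 5137 CPM. Both were lower in every 2 year library without passing the test (adjusted p 0.562 and 0.572 in edgeR). Col17a1, a hemidesmosome collagen of basal stem cells, had a log2 fold change of -0.11 and Trp63, the basal master regulator, of -0.22, and neither was called.

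Of the 14865 genes tested, 27 were called, which is 0.182%, with 24 higher at 2 years (0.161%) and 3 lower (0.0202%). The libraries of both ages did not overlap for any of the 27. Over all genes 9.14% had no overlap in the higher direction and 7.79% in the lower. With 3 libraries per age, a gene that passes the test is likely to show no overlap, so this adds no support to the calls. Without a threshold on adjusted p, 980 genes had an unadjusted p under 0.05 in the higher direction (6.59%) and 670 in the lower direction (4.51%). Just outside the threshold lay Pappa (adjusted p 0.0509), Hbb-bt (0.0514) and Angptl2 (0.0567), and just inside it Igfbp4 and Rai14 (both 0.0495). Every single library moved the number of calls: it was 57 without 2 month replicate 1, 5 without replicate 2 and 7 without replicate 3, and 4, 121 and 14 without 2 year replicates 1, 2 and 3. Vim, Ctgf and Dct were called in all 6 of these reduced fits, Hba-a1 in 5, Krt42 and Gm2163 in 4, and Sdc3, Krt90 and Me1 in 3. The other called genes were called in 2 or fewer.

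**Figure D1:**
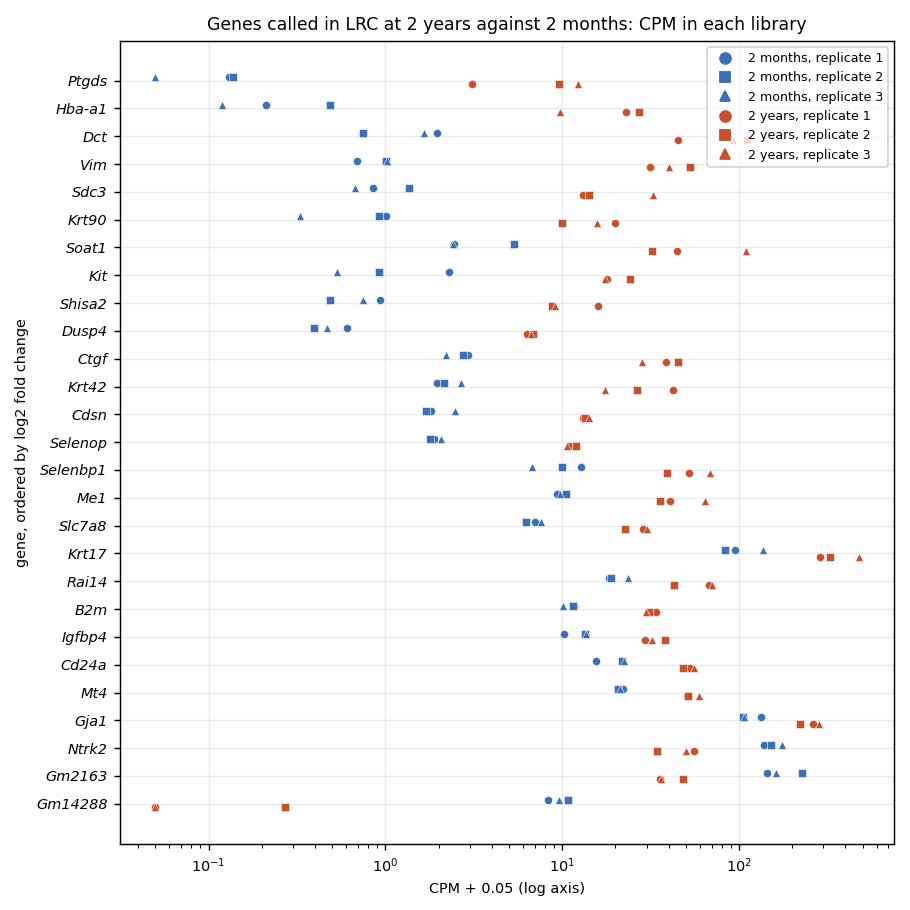
CPM of the 27 called genes in each LRC library, on a log axis with 0.05 added, ordered by log2 fold change. Blue marks are the 2 month libraries and orange marks the 2 year libraries, with a circle, square or triangle for replicates 1, 2 and 3; the blue and orange marks of a gene do not overlap.

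Vim, the intermediate filament protein vimentin, had the smallest p. It stood at 0.639, 0.955 and 0.971 CPM at 2 months and at 31.5, 52.6 and 40.2 CPM at 2 years. The rise was 47.8-fold (log2 fold change 5.58, SE 0.31, edgeR adjusted p 7.84e-04; chromosome 2, 13573927 to 13582826). The 2 year libraries lay within 2-fold of each other and all 2 month libraries were near the bottom of detection. Ctgf, a secreted matricellular protein that is a standard target of YAP and TGF-beta signalling, rose from 2.88, 2.69 and 2.15 CPM to 38.6, 44.9 and 28.4 CPM. Its rise was 14.5-fold (log2 fold change 3.86, SE 0.26, edgeR adjusted p 0.00201; Ccn2 in RefSeq, chromosome 10, 24595442 to 24598683). Both genes passed in every reduced fit and in the first library set alone, which holds replicates 1 and 2 of each age.

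Keratins and cornified layer genes formed another set among the called genes, put together after the results were seen. Krt17, a keratin of follicle outer root sheath and stressed epidermis, had 95.4, 83.6 and 137 CPM at 2 months and 288, 329 and 478 CPM at 2 years (log2 fold change 1.79, SE 0.25, edgeR adjusted p 0.0472). Krt42 rose from 1.92, 2.08 and 2.64 CPM to 42.3, 26.6 and 17.4 CPM, with a log2 fold change of 3.69 (SE 0.38, edgeR adjusted p 0.0167). Krt90, which overlaps another annotated gene, rose from 0.959, 0.868 and 0.278 CPM to 19.9, 9.96 and 15.7 CPM, with a log2 fold change of 4.44 (SE 0.51, edgeR adjusted p 0.0199). Cdsn, corneodesmosin, which holds cornified cells together, rose from 1.76, 1.65 and 2.43 CPM to 13.0, 13.4 and 14.1 CPM, with a log2 fold change of 2.78 (SE 0.31, edgeR adjusted p 0.0199). Mt4, a metallothionein of stratified epithelia, rose by 1.34 (SE 0.15) on the log2 scale and Gja1, the gap junction protein connexin 43, by 1.15 (SE 0.16). Krt17 was called in 9 of 14 alternatives and in 1 of the 6 reduced fits. It was lost with RLE size factors, the first library set alone, deposited TPM, Xist as a covariate and no robust shrinkage.

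The remaining called genes that rose have varied roles, and the first of them encode secreted or surface proteins. Igfbp4, which binds insulin-like growth factors, had 10.1, 13.5 and 13.6 CPM at 2 months and 29.5, 38.2 and 32.4 CPM at 2 years (log2 fold change 1.43, SE 0.20, edgeR adjusted p 0.0495). It was called in none of the 6 reduced fits (adjusted p 0.0572 to 0.256). Selenop, the plasma selenium carrier, rose from 1.84, 1.74 and 2.01 CPM to 10.8, 11.9 and 10.6 CPM, with a log2 fold change of 2.57 (SE 0.31, edgeR adjusted p 0.0230). Sdc3, the proteoglycan syndecan 3, rose 22.0-fold, with 0.624 to 1.30 CPM at 2 months and 13.1 to 32.6 CPM at 2 years. Cd24a, a surface glycoprotein used to separate skin cell populations, rose from 15.4 to 22.4 CPM up to 48.2 to 55.8 CPM. Slc7a8, an amino acid transporter, rose from 6.17 to 7.56 CPM up to 22.6 to 30.3 CPM. Shisa2 rose from 0.434 to 0.879 CPM up to 8.76 to 15.95 CPM. Dusp4, a phosphatase that switches off MAP kinases, rose from 0.347 to 0.559 CPM up to 6.25 to 6.79 CPM. The call of Dusp4 stood in 2 of the 6 reduced fits and in 6 of 13 other alternatives. Rai14, an actin-associated ankyrin protein, rose by 1.58 (SE 0.23) on the log2 scale. Me1, malic enzyme, and Selenbp1 rose by 2.26 (SE 0.25) and 2.44 (SE 0.30) on the log2 scale.

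Ntrk2, which encodes the neurotrophin receptor TrkB, was the 1 gene with an established symbol that fell. It had 139, 151 and 175 CPM at 2 months and 55.5, 34.3 and 50.2 CPM at 2 years (log2 fold change -1.73, SE 0.20, edgeR adjusted p 0.0200; chromosome 13, 58806569 to 59133970). The call was absent in 4 of the 6 reduced fits, and the gene overlaps 4 other annotated genes. Of the 10 members of the neurotrophin list that were tested, Ntrk2 alone was called, where 0.0202% of all genes were called lower. Sort1, sortilin, a sorting receptor for pro-neurotrophins, had 23.4, 28.6 and 24.2 CPM at 2 months and 51.7, 41.6 and 60.5 CPM at 2 years (adjusted p 0.0904). The other 2 genes that fell were gene models. Gm14288 had 8.31, 10.8 and 9.58 CPM at 2 months and was at or under 3 reads in each 2 year library, which is at least 38.3-fold lower. On the scale of all 24 libraries, nLRC had 0, 9.01 and 4.22 CPM at 2 months and 6.88, 1.92 and 3.76 CPM at 2 years. HFSC had 4.48, 0 and 5.86 CPM and then 0, 3.66 and 3.90 CPM. The call of Gm14288 was lost in a fit of the 18 libraries at 2 months and 2 years and in a fit of all 24. Gm2163 had 145, 227 and 161 CPM and then 35.8, 48.3 and 36.1 CPM, but 1.19% of its reads were exonic, so most lie in introns or overlapping loci.

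Genes of pigment cells, sebaceous glands and red blood cells were higher at 2 years, and 4 of the 24 genes called higher belong to these lists. More cells of a type and more RNA per cell cannot be told apart in these bulk libraries. Of 14 melanocyte genes tested, 2 were called, Dct and Kit, both higher, where 0.161% of all genes were called higher. Dct, a melanin synthesis enzyme, had 1.92, 0.695 and 1.596 CPM at 2 months and 45.0, 111 and 92.5 CPM at 2 years (log2 fold change 5.86, SE 0.47, edgeR adjusted p 0.00612; chromosome 14, 118012790 to 118052244). Kit, the receptor on which melanocytes depend, had 2.24, 0.868 and 0.486 CPM and then 17.9, 24.2 and 17.5 CPM, with a log2 fold change of 4.05 (SE 0.51, edgeR adjusted p 0.0289). The melanosome genes Tyrp1, with 0.080, 0.087 and 1.18 CPM and then 4.52, 34.2 and 22.2 CPM, and Pmel, with 4.47, 3.99 and 2.71 CPM and then 8.77, 29.1 and 16.2 CPM, were not called (adjusted p 0.106 and 0.104). The list's median log2 fold change was 3.45, and 10 of 14 members had no overlap between ages in the higher direction, beside 9.14% of all genes. The list summed to 98.0 to 119 CPM at 2 months and 193 to 366 CPM at 2 years, lowest in replicate 1.

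Of 11 sebaceous genes tested, Soat1, which esterifies cholesterol, was called, where 0.161% of all genes were called higher. It had 2.40, 5.30 and 2.36 CPM at 2 months and 44.7, 32.1 and 109 CPM at 2 years (log2 fold change 4.22, SE 0.56, edgeR adjusted p 0.0414). It was called in 1 of the 6 reduced fits and in 7 of 14 other alternatives. Scd1, a fatty acid desaturase of sebocytes, had 75.7, 101 and 108 CPM and then 469, 446 and 1461 CPM (adjusted p 0.0700). Far2, which makes wax alcohols, had 5.76 to 7.47 CPM at 2 months and 38.4 to 226 CPM at 2 years (adjusted p 0.101). The sum of the list was 295 to 608 CPM at 2 months and 859 to 2410 CPM at 2 years, with the highest value in replicate 3. Its median log2 fold change was 3.06, and 1.73 without 2 year replicate 1. No member lay lower at 2 years, and 8 of 11 had no overlap between ages in the higher direction, beside 9.14% of all genes.

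Haemoglobin transcripts, which mark red blood cells, were near the floor at 2 months. Hba-a1 had 0.160, 0.434 and 0.069 CPM at 2 months and 22.9, 27.3 and 9.71 CPM at 2 years (log2 fold change 6.49, SE 0.65, edgeR adjusted p 0.0167; chromosome 11, 32283511 to 32284465). Its reads cannot be told cleanly from those of its near-identical neighbour Hba-a2. Of 5 erythroid genes tested Hba-a1 was called, where 0.161% of all genes were called higher. The list summed to 3.04 to 7.90 CPM at 2 months and to 200.3, 147 and 21.2 CPM in 2 year replicates 1, 2 and 3. Ptgds, prostaglandin D synthase, had 1, 1 and 0 reads at 2 months and 46, 87 and 167 reads at 2 years, which is at least 35.1-fold higher (edgeR adjusted p 0.0314).

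Summed levels of further cell types were also read. The 16 fibroblast genes, of which 9 were tested, summed to 466 to 1031 CPM at 2 months and 460 to 603 CPM at 2 years, mostly Postn and Sparc. Dcn, decorin, a fibroblast proteoglycan, had 1.118, 0.955 and 0.139 CPM and then 5.92, 15.5 and 14.2 CPM (adjusted p 0.0803). Of 16 Langerhans and myeloid genes 4 passed the count filter, and the list summed to 4.08 to 11.7 CPM and then 10.3 to 36.4 CPM. T cell genes summed to 1.80 to 26.5 CPM and then 6.35 to 22.4 CPM. Endothelial genes summed to 18.1 to 49.6 CPM and then 45.6 to 93.0 CPM. No gene of these 4 lists was called. The part that cells of these kinds have in the changes of Vim, Ctgf and the other called genes was not tested.

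**Figure D2:**
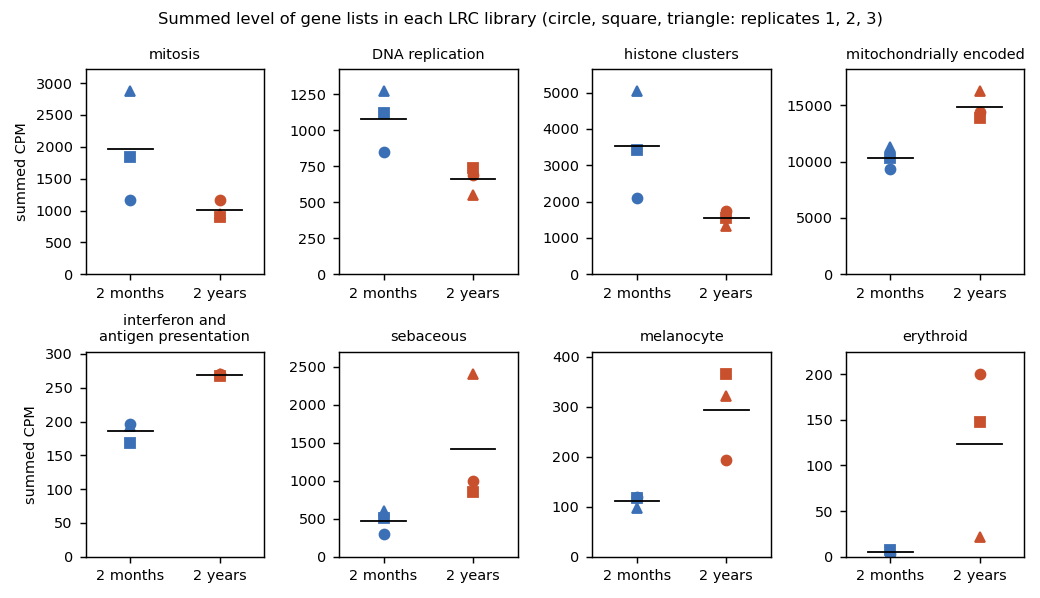
Summed CPM of 8 gene lists in each LRC library, with circle, square and triangle for replicates 1, 2 and 3, blue for 2 months, orange for 2 years and a bar at each mean. The mitosis, DNA replication and histone sums are lower at 2 years, the others higher, and 2 month replicate 3 has the highest mitosis and histone sums.

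Genes of the dividing cell had lower values at 2 years as a group, although no single member passed the test over all genes. Mitosis genes encode the spindle, kinetochore and chromosome condensation machinery that cells make in G2 and M phase, DNA replication genes encode the helicase and polymerases of S phase, and the clustered histone genes supply histones while DNA is copied. Of 29 mitosis genes tested, 29 had a negative log2 fold change, beside 49.9% of all genes tested, and 20 an unadjusted p under 0.05 in the lower direction, beside 4.51% of all genes. The median log2 fold change was -0.98, and -0.55 without 2 month replicate 3. Of 30 replication genes 29 were negative and 21 had an unadjusted p under 0.05, with a median of -0.70. Of 68 clustered histone genes tested 64 were negative, 54 had an unadjusted p under 0.05 and 43 had no overlap between ages, beside 7.79% of all genes, and the median was -1.30. Histone genes of 1 kind are near-identical copies, so their split of reads is uncertain.

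The 3 members with the smallest p in their lists and a promoter in RefSeq are given first. Mki67, which encodes the proliferation antigen Ki-67, had 394, 572 and 772 CPM at 2 months and 368, 273 and 229 CPM at 2 years (log2 fold change -0.997, SE 0.27, edgeR adjusted p 0.203). Mcm2, a subunit of the replicative helicase, had 42.5, 53.9 and 64.5 CPM and then 20.7, 24.4 and 24.5 CPM, with a log2 fold change of -1.21 (SE 0.19, edgeR adjusted p 0.0649). Hist1h1b, a linker histone, had 69.2, 117 and 186 CPM and then 42.4, 32.5 and 24.2 CPM, with a log2 fold change of -1.91 (SE 0.36, edgeR adjusted p 0.101). For each of the 3 genes replicate 1 was the lowest of the 2 month libraries and replicate 3 the highest, and the ages did not overlap. The summed mitosis genes of 2 month replicate 1, at 1165 CPM, lay beside 1164 CPM in 2 year replicate 1, so for this sum 1 library of each age had almost the same value. Replicate 1 is also the 2 month library high in Xist, and with Xist as a covariate the medians of mitosis, replication and histone genes were -0.66, -0.51 and -0.94.

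Their promoters are shown because members of these lists moved together and share known sequence elements. Each runs from 250 bases before to 50 bases after the annotated start in RefSeq on GRCm38.p6, read 5′ to 3′ on the gene's strand, with capitals at the motifs searched on both strands: CCAAT, the CHR element TTTGAA of G2 and M phase genes, the E2F sites TTTGGCGC and TTTCCCGC, the AP-1 site TGACTCA and the TATA box TATAAA.
Mki67 (chr7:135716330-135716629, minus strand): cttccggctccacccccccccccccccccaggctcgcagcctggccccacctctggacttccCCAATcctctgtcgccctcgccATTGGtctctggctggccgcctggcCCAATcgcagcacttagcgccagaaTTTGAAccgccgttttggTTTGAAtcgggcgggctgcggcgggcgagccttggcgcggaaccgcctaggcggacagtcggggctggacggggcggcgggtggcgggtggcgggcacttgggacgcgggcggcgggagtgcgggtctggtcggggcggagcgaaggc
Mcm2 (chr6:88898731-88899030, minus strand): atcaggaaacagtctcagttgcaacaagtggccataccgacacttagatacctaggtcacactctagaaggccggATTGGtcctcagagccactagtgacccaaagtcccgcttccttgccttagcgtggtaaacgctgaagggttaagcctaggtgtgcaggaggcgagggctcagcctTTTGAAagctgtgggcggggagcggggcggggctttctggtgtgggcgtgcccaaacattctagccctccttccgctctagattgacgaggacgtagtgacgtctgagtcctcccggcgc
Hist1h1b (H1f5 in RefSeq, chr13:21780576-21780875, minus strand): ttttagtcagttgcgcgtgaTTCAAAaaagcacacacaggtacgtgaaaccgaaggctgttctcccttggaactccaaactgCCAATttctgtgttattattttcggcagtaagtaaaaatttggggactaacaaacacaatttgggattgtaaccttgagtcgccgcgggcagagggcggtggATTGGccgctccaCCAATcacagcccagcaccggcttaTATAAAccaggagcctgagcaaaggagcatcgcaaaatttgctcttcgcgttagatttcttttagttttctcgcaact
The Mki67 window held 5 matches, 3 to CCAAT and 2 to TTTGAA, while the Mcm2 window held 1 of each. The Hist1h1b window held 3 matches to CCAAT, 1 to TTTGAA and 1 to the TATA box. Over the mitosis list, 26 of 29 tested members had a promoter in the table, of which 80.8% held CCAAT and 76.9% TTTGAA, beside 37.4% and 17.9% of all 32851 promoter windows. Of 25 replication promoters 60.0% held CCAAT and 36.0% an E2F site, beside 1.56% of all windows for the latter. TTTGAA, found in the Mcm2 window, was in 12% of them, below the 17.9% of all windows. Of 61 histone promoters 83.6% held CCAAT and 55.7% the TATA box, which 13.6% of all windows held. AP-1 matches were in none of these list promoters and in 1709 of all 32851 windows. These shares describe the letters of the windows and not binding by any factor.

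Differentiation genes were higher at 2 years. Of 22 interscale differentiation genes tested, 20 had a positive log2 fold change, beside 50.1% of all genes tested, and 16 an unadjusted p under 0.05 in the higher direction, beside 6.59% of all genes, with a median of 0.86 and no call. Hrnr, hornerin, a cornified envelope protein of the granular layer, had 1.28, 0.955 and 0.694 CPM at 2 months and 189, 13.2 and 54.1 CPM at 2 years (adjusted p 0.101). Flg, filaggrin, had 3.91, 10.9 and 3.40 CPM and then 325, 23.8 and 80.4 CPM (adjusted p 0.203). Both were highest in 2 year replicate 1 and lowest in replicate 2, with a spread of over 10-fold among the 2 year libraries. Krt10, a keratin of suprabasal cells, had 2227, 2354 and 2262 CPM and then 2950, 2625 and 3232 CPM (log2 fold change 0.36, SE 0.14, adjusted p 0.393). The 6 scale keratins tested had a median log2 fold change of 3.96, but none kept the ages apart. Krt84 stood at 146, 40.0 and 43.4 CPM at 2 months and at 460, 28.6 and 1629 CPM at 2 years, with replicate 2 below every 2 month library.

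Genes of a joint list of interferon and antigen presentation were higher as a group. Of 14 tested, 12 had a positive log2 fold change, beside 50.1% of all genes tested. B2m, the light chain of class I histocompatibility molecules, rose from 11.7, 11.5 and 10.1 CPM to 34.1, 30.8 and 29.6 CPM, with a log2 fold change of 1.51 (SE 0.18, edgeR adjusted p 0.0230). Tap1, a subunit of the transporter that loads peptides onto those molecules, had 14.9, 13.1 and 14.6 CPM and then 28.2, 28.0 and 33.3 CPM (adjusted p 0.0701). Tap2, the other subunit, had 9.38 to 12.6 CPM and then 17.6 to 30.0 CPM (adjusted p 0.151). Of 14 members tested of 26, B2m was called, where 0.161% of all genes were called higher. No overlap between ages in the higher direction was seen for 9 members, beside 9.14% of all genes, and the median log2 fold change was 1.08. Of 14 inflammation genes tested none was called and the median was 0.97. Cxcl14, a chemokine made by keratinocytes, had 71.0, 59.3 and 58.1 CPM and then 125, 174 and 120.1 CPM (adjusted p 0.0640).

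**Figure D3:**
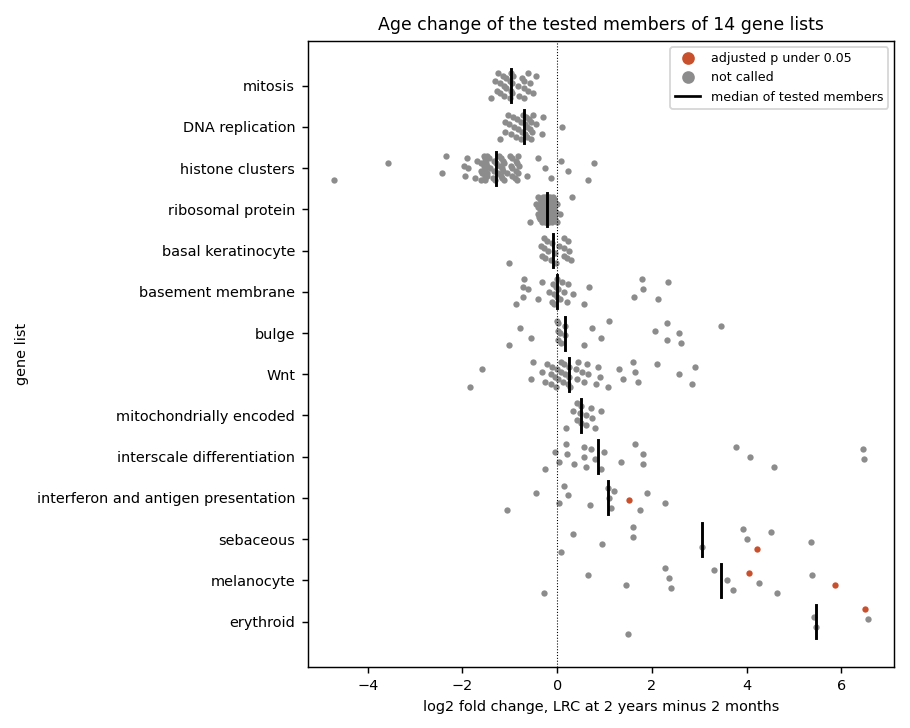
Log2 fold change of the tested members of 14 gene lists in LRC at 2 years against 2 months, with a black bar at each median and called members in orange. All mitosis members lie below 0, and the sebaceous, melanocyte and erythroid medians of 3.06, 3.45 and 5.46 lie farthest to the right.

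Transcripts of mitochondria and ribosomes differed in direction. All 13 mitochondrially encoded protein genes had a positive log2 fold change, beside 50.1% of all genes tested. Of them 9 had no overlap between ages, beside 9.14% of all genes, and none was called, with a median of 0.50. mt-Nd2, a subunit of respiratory complex I, had 274, 315 and 302 CPM at 2 months and 621, 487 and 582 CPM at 2 years (adjusted p 0.0649). Of 85 nuclear genes for the same respiratory machinery, 32 were positive and 53 negative, with a median of -0.07, which was 0.0059 in the first library set alone. Of 81 ribosomal protein genes 79 were negative with a median of -0.22, which was -0.12 without 2 year replicate 1 and -0.35 without replicate 2. None of these genes was called.

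Of 29 basement membrane genes tested, none was called. In the higher direction 5 had no overlap and in the lower direction 8, beside 9.14% and 7.79% of all genes tested, and the median was -0.00396. Col7a1, the anchoring fibril collagen, had 240.3, 293 and 259 CPM and then 171, 160 and 147 CPM (adjusted p 0.0969). Frem2, part of the Fraser complex below the basal layer, had 73.6, 70.8 and 64.7 CPM and then 38.1, 49.6 and 38.6 CPM (adjusted p 0.126). Col18a1 had 313 to 376 CPM and then 177 to 236 CPM (adjusted p 0.137). Col4a1, a collagen IV chain, had 4.31, 1.65 and 0.971 CPM and then 11.96, 5.04 and 7.43 CPM (adjusted p 0.295). Among matrix protease genes, the inhibitors Timp3, at 74.6, 52.0 and 47.5 CPM and then 183, 118 and 143 CPM, and Timp2, at 17.0, 17.1 and 23.5 CPM and then 41.1, 41.5 and 51.5 CPM, missed the threshold with adjusted p 0.0701 and 0.0675. Ltbp1, which anchors latent TGF-beta, had 41.9, 44.7 and 35.9 CPM and then 13.6, 8.76 and 22.1 CPM (adjusted p 0.119).

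Of the signalling lists, the insulin-like growth factor axis held Igfbp4, described above, as its called member of 14 tested. Over all genes 0.161% were called higher. Pappa, a protease that cleaves IGFBP4, had 76.1, 105 and 75.3 CPM at 2 months and 29.1, 29.6 and 39.7 CPM at 2 years (log2 fold change -1.38, SE 0.20, edgeR adjusted p 0.0509). Its reads were 33.3% exonic. Irs1, an insulin receptor adaptor, had 6.47, 18.4 and 8.19 CPM and then 29.8, 54.9 and 41.2 CPM (adjusted p 0.121). Of 43 Wnt genes tested none was called, and the median was 0.25, or 0.44 without 2 month replicate 1. Sostdc1, a secreted inhibitor of Wnt and BMP signals, had 110.2, 160.3 and 239 CPM and then 50.5, 68.4 and 51.6 CPM (adjusted p 0.0803). Nkd1, a feedback inhibitor of Wnt signalling, had 0.959, 1.04 and 0.694 CPM and then 10.9, 6.02 and 3.38 CPM (adjusted p 0.101). Of 19 circadian clock genes none was called and 15 were positive. Times of day at collection were not given in the labels.

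Of 21 genes known from the hair follicle bulge, none was called. Lhx2, a transcription factor of bulge stem cells, had 2.72, 2.69 and 1.87 CPM at 2 months and 15.1, 8.76 and 12.2 CPM at 2 years (log2 fold change 2.31, SE 0.35, edgeR adjusted p 0.0584). Tbx1 had 1.04, 2.87 and 2.85 CPM and then 15.2, 11.6 and 14.6 CPM (adjusted p 0.0649). Lgr5, an R-spondin receptor of follicle stem cells, had 4.87, 4.17 and 3.89 CPM and then 45.6, 7.99 and 23.1 CPM (adjusted p 0.134). Krt15, a keratin of bulge and slow-cycling basal cells, had 1031, 1769 and 2255 CPM and then 664, 1190 and 641 CPM (adjusted p 0.291), with 2 year replicate 2 above 2 month replicate 1. The median of the list was 0.17, and 0.45 without 2 month replicate 1. Among 18 genes of cell-cycle inhibition and senescence, Igfbp4 was called, where 0.161% of all genes were called higher. Cdkn2a, which encodes the inhibitors p16 and p19Arf, had 0.559, 0.260 and 0.278 CPM and then 2.59, 1.53 and 1.47 CPM (adjusted p 0.306). Cdkn1a, which encodes p21, had a log2 fold change of 0.37 (SE 0.24, adjusted p 0.652).

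The age change in LRC was set beside that in nLRC, the fast-cycling epidermal cells, by a test of the difference in a fit of 12 libraries. Of 15678 genes, 95 differed (0.606%), with the change in LRC above that in nLRC for 25 and below for 70. Libraries with the same number and age in both populations deviated from their group means together at 2 months (correlations 0.570, 0.298 and 0.513), and less evenly at 2 years (0.0521, 0.315 and 0.206). With that number as a replicate block within each age, a fit added after the data were seen, 213 genes differed. Of the 27 genes called in LRC, 22 had the same sign of age change in nLRC and 18 passed there, where 3.17% of all genes passed, and 5 differed between the populations: Selenbp1, Mt4, Cd24a, Gja1 and Ntrk2. With the block 6 differed, Krt90 being the sixth (adjusted p 0.0187). Ntrk2 had a log2 fold change of 0.40 in nLRC and differed by -2.14 (SE 0.32, edgeR adjusted p 0.00573). Mt4 had a log2 fold change of -1.42 in nLRC and differed by 2.75 (SE 0.36, edgeR adjusted p 0.00244). For Vim the difference was 0.71 (SE 0.51, adjusted p 0.863) and for Dct 0.95 (SE 0.61, adjusted p 0.847), which does not show that the changes were alike.

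**Figure D4:**
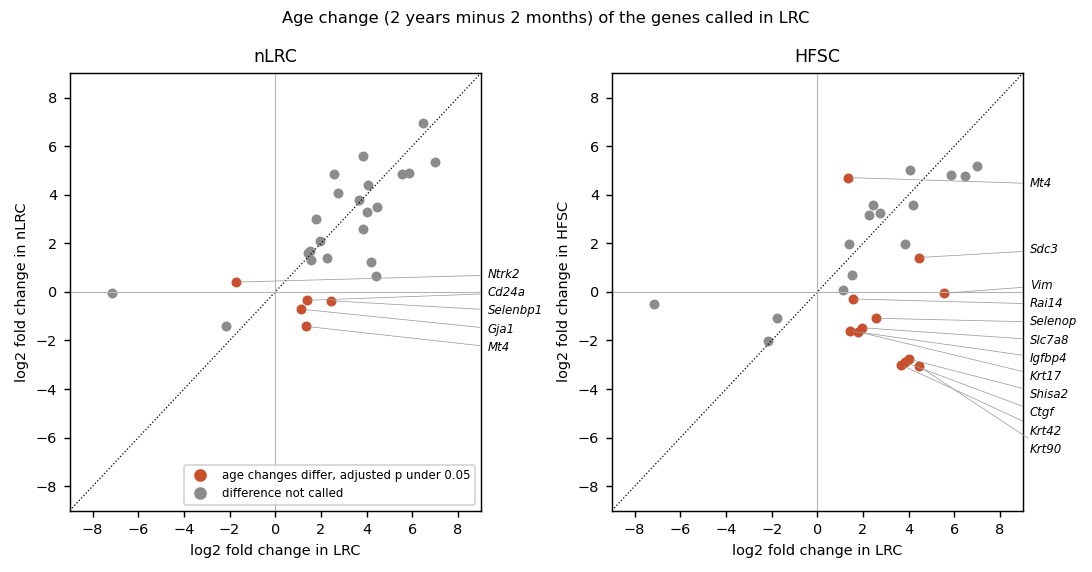
Log2 fold change at 2 years against 2 months of the 27 genes called in LRC (horizontal) and in nLRC or HFSC (vertical), from fits of 12 libraries. Orange points are genes whose age changes differ at an adjusted p under 0.05, 5 against nLRC and 12 against HFSC, and the dotted line marks equal changes.

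The 5 genes with the smallest p for that difference were Krt80, Angptl2, Pappa, Dpysl3 and 1700019D03Rik, and their levels, scaled over all 24 libraries, were high in LRC and low in nLRC at 2 months. Pappa had 60.3, 87.6 and 64.0 CPM in LRC and 6.38, 4.90 and 3.36 CPM in nLRC at 2 months. At 2 years it had 23.9, 24.4 and 32.2 CPM in LRC and 17.6, 17.9 and 25.002 CPM in nLRC. Krt80, a keratin of differentiating epithelia, had 78.4 to 101 CPM in LRC and 12.9 to 19.6 CPM in nLRC at 2 months, with 53.5 to 70.4 CPM and 61.8 to 87.3 CPM at 2 years. Angptl2, a secreted angiopoietin-like protein, and Dpysl3, a cytoskeletal regulator, had differences of -2.60 (SE 0.27) and -3.02 (SE 0.34). In the same fits LRC and nLRC differed in 379 genes at 2 months by edgeR (2.42%, and 845 by DESeq2) and in 0 at 2 years (1 by DESeq2), where 1386 genes had an unadjusted p under 0.05. With the replicate block these counts were 842 and 0, with 2171 genes at an unadjusted p under 0.05 at 2 years. By these tests the 2 year LRC were thus not set apart from nLRC, which does not show that the populations were alike.

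For the lists, the medians in the same 12 libraries stood at -0.99 in LRC and -0.33 in nLRC for mitosis and at -0.71 and -0.27 for DNA replication. No member of either differed between the populations, with or without the block. Mki67 at 2 months had 312, 477 and 656 CPM in LRC and 340, 344 and 361 CPM in nLRC. Top2a, another gene of dividing cells, had 111, 179 and 308 CPM beside 71.7, 85.0 and 86.5 CPM. Both are on the scale of all 24 libraries. The names slow-cycling and fast-cycling thus rest on the retained label and not on the levels of these genes. Clustered histone genes had a median of -1.31 in LRC and 0.54 in nLRC. Of 68 tested, 1 differed, Hist1h2ah, beside 0.606% of all genes. With the replicate block within each age 15 of 68 differed, beside 213 of all 15678 genes. Melanocyte genes had medians of 3.44 and 3.76 and erythroid genes of 5.45 and 6.29, with no member that differed with or without the block. Mitochondrially encoded genes had medians of 0.49 and -0.06, with none that differed. In the insulin-like growth factor list, with 16 genes tested, Igfbp5, Irs1 and Pappa differed, beside 0.606% of all genes.

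Against HFSC, 871 of 16188 genes differed in age change (5.38%), 484 with the change in LRC above (2.99%) and 387 below (2.39%). CPM in this paragraph are on the scale of all 24 libraries, so values in LRC differ from those given for the 6 libraries. The libraries labelled HFSC had Cd34, the surface marker of bulge stem cells, at 112 to 183 CPM at 2 months. At 2 years Cd34 stood there at 9.19 to 12.2 CPM, so this marker differs between the ages in HFSC. Of the 27 genes called in LRC, 17 had the same sign in HFSC and 22 passed there, where 11.2% of all genes passed. Of the 27, 12 differed. With the replicate block within each age 1500 genes differed, 14 of the 27 among them, now with Gja1 and Ntrk2. Vim, at 17.8 to 61.0 CPM in HFSC at 2 months and 28.7 to 48.9 CPM at 2 years, differed by 5.62 (SE 0.60, edgeR adjusted p 1.25e-04). Ctgf stood at 384, 256 and 236 CPM in HFSC at 2 months and 44.2, 38.1 and 34.7 CPM at 2 years, and differed by 6.75 (SE 0.33, edgeR adjusted p 1.33e-07). Krt17, Krt42, Krt90, Shisa2, Igfbp4 and Slc7a8 were also higher in HFSC than in LRC at 2 months. Krt17 had 648 to 1142 CPM in HFSC and 69.8 to 116 CPM in LRC then, and 224 to 407 and 236 to 388 CPM at 2 years. Mt4 and Me1 were lower in HFSC than in LRC at 2 months. The other genes with the smallest p, Ano1, Chit1, Krt10 and Plbd1, were low in HFSC at 2 months. Krt10 stood at 39.8 to 53.6 CPM in those libraries and at 1804 to 3328 CPM at 2 years, while LRC held 1765 to 1965 CPM and then 2171 to 2622 CPM. At 2 years LRC and HFSC differed in 0 genes by edgeR and 1 by DESeq2, with 460 at an unadjusted p under 0.05, and at 2 months in 2151 and 2767. Blocked counts were 0 at 2 years, with 732 at an unadjusted p under 0.05, and 2981 at 2 months.

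LRC at 1.5 years, 2 libraries of a set that holds no other age, are given as values, since age and library set cannot be told apart there. On the scale of all 24 libraries, Vim stood at 57.7 and 70.2 CPM, Ctgf at 31.9 and 20.99 CPM, Dct at 115 and 71.9 CPM and Hba-a1 at 11.2 and 18.8 CPM, all above the 2 month libraries. Ntrk2 stood at 17.4 and 19.7 CPM, below every LRC library of both other ages. Slc7a8 stood at 112 and 122 CPM, above the 2 year libraries as well. Krt10 stood at 1114 and 1247 CPM, below the libraries of both other ages.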

How the data were processed

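RNA of sorted cells was sequenced as total RNA with a low-input stranded kit, per the labels' protocols, with mm10 named in the submitters' processing notes; the aligner, counter, its strand setting and annotation are not given in the sources used here. Each deposited file held, per the file headers, the authors' total gene read count per gene, introns included, with their RPKM and TPM, computed from exon reads. The count was used for all main tests. The deposited RPKM gave whole exon reads (within 0.01 reads) in all 6 libraries for 78.6% of 24165 genes with a value, and these and the deposited TPM, as log2(TPM + 1) with limma 3.58.1, served as alternatives.

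Counts of the 6 LRC libraries were filtered with filterByExpr, scaled by TMM and tested in both directions with edgeR 4.0.16 in R 4.3.3 (4 residual degrees of freedom, common biological coefficient of variation 0.389). Differences between age changes were tested as interactions in fits of 12 libraries. Same-numbered libraries of an age deviated together in all 3 pairs of LRC with nLRC at 2 months and of LRC with HFSC at 2 years (0.255, 0.416 and 0.189). They did so less evenly for nLRC at 2 years (0.0521, 0.315 and 0.206) and for HFSC at 2 months (-0.0630, 0.145 and 0.403). Counts with that number as a block are therefore given beside these tests. Nothing in the labels says what a number marks. DESeq2 1.42.0 was an alternative, and the closing section gives the effect of the others. On simulated counts for this comparison (14865 genes, of which 50 changed at each size), 34% of 2-fold, 86% of 4-fold, 92% of 8-fold and 96% of 16-fold changes were recovered, with 15 false calls. The changed genes were drawn from those with a mean log2 CPM of 2 or more, so recovery at lower levels is not covered. More genes were changed there than the 27 called in the data. Where no library of an age had more than 3 reads, the gene was taken as at the floor. Floors account for counting error alone, because without molecular identifiers the reads may be copies of 1 molecule.

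The comparison, gene lists and rules were chosen with earlier results of these data known. Genes were named where called, with an established symbol, no overlap between ages and a mean log2 CPM of 2 or more (up to 14 per direction), where on a panel of 22 genes, where called in a list, or where among the 5 smallest p of an interaction. The remaining called genes, and the members with the smallest p of each list, were added after their values were seen. Coordinates are those of GENCODE M21 on GRCm38, where 47102 of 49585 symbols were found. Dct, Sdc3, Krt90, Soat1, Selenop, B2m, Me1, Rai14, Krt80, Angptl2, Lhx2 and Tap1 overlap other annotated genes, which may have given some of their reads.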

Additional observations from a re-analysis of the deposited data

Results flagged for a closer look

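The results here were picked because the age change in LRC differed from that in another population by a test of the difference itself, and each value is the log2 age change in LRC minus that in the other population, in edgeR fits of 12 libraries. Against nLRC the difference was -4.77 for 1700019D03Rik, -3.47 for Pappa, -3.02 for Dpysl3, -2.78 for Krt80, -2.75 for Lrig1, -2.60 for Angptl2, -2.49 for Sox9 and -2.14 for Ntrk2. It was 2.79 for Selenbp1, which rose in LRC and had a log2 fold change of -0.36 in nLRC. Lrig1, a feedback inhibitor of growth factor receptors, and Sox9, a transcription factor of follicle and slow-cycling cells, were not called in LRC alone, where their log2 fold changes were -0.40 and 0.08. Their adjusted p for the difference was 0.00755 and 0.00201. Both rose in nLRC, on the scale of all 24 libraries. Lrig1 went from 11.9 to 15.9 CPM at 2 months up to 42.8 to 93.2 CPM at 2 years. Sox9 went from 13.9 to 17.3 CPM up to 76.7 to 96.7 CPM.

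Against HFSC the difference was 7.51 for Krt90, 6.80 for Shisa2, 6.75 for Ctgf, 6.68 for Krt42, 5.62 for Vim, 3.64 for Selenop and 3.03 for Sdc3. It was -5.33 for Krt10, -4.76 for Ano1, -4.56 for Plbd1 and -3.84 for Chit1. Adjusted p lay between 1.33e-07 for Ctgf and 0.00680 for Sdc3. Levels here are on the scale of all 24 libraries. In HFSC, Krt90 fell from 96.3 to 190 CPM at 2 months to 14.7 to 18.1 CPM at 2 years. Shisa2 fell there from 75.6 to 114 CPM to 10.6 to 16.6 CPM. Sdc3 rose there, from 3.70 to 7.56 CPM up to 12.6 to 20.4 CPM. The libraries labelled HFSC lost most of their Cd34 between the ages, and its part in these differences was not tested.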

How the results depend on the processing

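The number of called genes, 27 with 24 higher and 3 lower, moved widely with the settings: 747 with no count filter (410 higher, 337 lower), 523 with DESeq2 (339, 184), 189 in a fit of the 18 libraries at 2 months and 2 years (164, 25), 78 in a fit of all 24 libraries (74 higher), 17 with deposited TPM (14 higher) and 6 in the first library set alone (5, 1). Exon reads, added after the data were seen, gave 110 (89, 21). With at least 10 counts in every library 7 were lower, and with Xist as a covariate or without ribosomal RNA genes and Zc3h7a, both added later, 5 were lower. Replicate numbers did not clearly pair the 2 month with the 2 year LRC libraries. Same-number deviations correlated at 0.233, 0.0886 and 0.0224, beside 0.203 for 2 month replicate 3 with 2 year replicate 2. A replicate block gave 41 calls, 7 of them lower. Of the 6 libraries, 3 correlated best with the library of their own number. With no count filter the median of all genes was -0.27 and with TPM -0.15. The cause of these differences was not tested.

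Leaving out a replicate gave 4 to 121 calls (4 to 106 higher, 0 to 25 lower), 46 to 104 differences from nLRC and 557 to 869 from HFSC. The differences numbered 95 and 871 as reported, 475 and 1597 with no filter, 251 and 1351 with DESeq2, 8 and 359 in the first set and 63 and 443 in a fit of all 24 libraries. A replicate block across ages gave 123 and 993, and a replicate block within each age 213 and 1500.

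Among the 17 lists followed over these settings, medians kept their sign except basement membrane (-0.0768 to 0.12 over replicates left out, 0.0212 in the first set, -0.21 with TPM). They moved with TPM for basal keratinocyte (-0.23), interferon and antigen presentation (0.60), Wnt (0.0263), sebaceous (2.04), melanocyte (2.11) and erythroid genes (4.06). With at least 10 counts everywhere sebaceous, melanocyte and erythroid medians were 1.58, 1.44 and 3.47. In the first set scale keratins were at 1.40, histones at -0.79 and sebaceous genes at 1.95. Replicates left out gave 0.0089 to 0.82 for the insulin-like growth factor axis, 0.18 to 0.44 for Wnt and 1.73 to 3.31 for sebaceous genes.

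Of single genes, those that changed sign were uncalled. Dlx1 was at -0.0441 with the replicate block, -0.0333 with a library set term, -0.52 in the first set, -0.0635 with TPM, -0.19 with Xist as a covariate, and from -0.44 to 0.33 over replicates left out. Slc1a3 was at -0.19 in the first set, -0.13 with TPM, -0.15 with Xist, -0.18 on exon reads and from -0.19 to 1.02 over replicates left out. Sox9 was at -0.0041 with TPM. Over replicates left out Sox9 ranged from -0.15 to 0.37, Krt1 from -0.0561 to 0.35, Fbln7 from -0.27 to 0.39 and Ly6a from -0.57 to 0.0534. Over named genes and settings, 938 results kept side and direction, 168 lost the call, 24 gained it and 20 changed sign. These counts pool called genes with uncalled ones, for which staying uncalled counts as kept. The 938 therefore does not measure how often a call held, and the 168 losses could come from called genes alone. Most called genes kept the call in a minority of the reduced fits, as given above. With 3 libraries per age, changes of 2-fold were mostly missed in the simulation.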
